A study of Zea mays with 14 samples.

Results

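Elongation factor 1 alpha (EF1a, also called eEF1A) was followed in maize (Zea mays) embryonic axes through 4 control probe sets that the manufacturer placed along its transcript, selected as every row whose identifier begins with AFFX-Zm-ef1a, 4 of 17734 rows on the array. The array is an Affymetrix maize expression array with 1 colour, and the deposited values are log2 intensities. 14 arrays covered 11 biological samples in 5 groups. Polysomal RNA came from axes of seeds imbibed for 22 h and then held for 2 h in complete MS medium, with 200 µU/mL bovine insulin in 3 samples and without it in 3 samples. Total RNA came from 1 insulin-treated sample (22 h of imbibition, 2 h in medium with 200 µU/mL insulin, 2 technical arrays), from 2 samples of axes taken after 24 h of germination (named M4, with 2 technical arrays, and RB), and from 2 samples of quiescent axes at 0 h (sample 1 with 2 technical arrays). No source names the maize variety, and it is left unsaid whether the axes of the 24 h group were also held in medium, so the polysomal and total groups without insulin may differ in handling as well as in RNA fraction. Polysomes were concentrated through a sucrose cushion, which collects all dense particles together and does not sort them by ribosome number.

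EF1a is the translation factor that, bound to GTP, delivers each aminoacyl-tRNA to the ribosome. It is among the most abundant proteins of plant cells and is encoded by a small family of closely similar genes in maize. Dry cereal embryos hold a store of messenger RNA made during seed development, and protein synthesis restarts on polysomes soon after water uptake. Growth factors such as insulin act in animal cells through a kinase pathway that favours translation of mRNAs for ribosomal proteins and elongation factors, many of which carry a pyrimidine tract at the start of the transcript.

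The 4 probe sets report one transcript family at 3 places: 1 at the 3′ side (AFFX-Zm-ef1a-3_x_at), 1 in the middle (AFFX-Zm-ef1a-M_x_at) and 2 at the 5′ side (AFFX-Zm-ef1a-5_a_at and AFFX-Zm-ef1a-5_x_at). The suffix x marks a probe set in which some probes also match other transcripts, and the suffix a marks one designed to match several transcripts of one gene. How far the 4 separate the EF1a genes from each other was not tested. The annotation table used here pairs none of the 4 with a gene. Labelling of this kind starts at the poly(A) tail, so a probe set far from the tail depends more on full-length RNA and full-length copying. Because different probes bind differently, a higher signal at one probe set than at another is not read as more mRNA, and differences between probe sets were tested only between samples.

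All 4 probe sets were far above background in all 11 samples, where background is a sample's 95th percentile over 23 negative controls (4.29 to 4.81 log2 units). The 3′ probe set was almost flat over the study. It read 13.19, 13.09 and 13.39 in polysomal RNA with insulin, 13.06, 13.28 and 13.32 in polysomal RNA without insulin, 13.57 in total RNA with insulin, 13.59 and 13.52 in total RNA at 24 h, and 13.00 and 13.37 in quiescent total RNA. The 3 germinated total RNA samples were the highest, and the quiescent and polysomal samples overlapped below them.

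The middle probe set read 12.60, 13.21 and 13.31 in polysomal RNA with insulin, 13.14, 12.45 and 13.19 in polysomal RNA without insulin, 13.53 in total RNA with insulin, 13.41 and 13.36 at 24 h, and 12.96 and 13.08 in quiescent axes. Polysomal insulin sample 1 and polysomal no-insulin sample 2 were the lowest, and the other 4 polysomal samples lay above the quiescent ones. The 5′ x probe set read 10.77, 11.46 and 12.20 in polysomal RNA with insulin, 11.54, 10.56 and 12.25 in polysomal RNA without insulin, 13.02 in total RNA with insulin, 12.77 and 12.67 at 24 h, and 11.65 and 11.81 in quiescent axes. The same 2 polysomal samples were the lowest, and the germinated total RNA samples were again the highest. The 5′ a probe set gave 11.12, 11.83 and 12.61, then 11.94, 10.91 and 12.64, then 13.37, then 13.14 and 13.12, and finally 12.06 and 12.24 in the same groups and order.

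Ordered by group mean, the 3′ probe set was at 13.57 in total RNA with insulin (1 sample), 13.55 ± 0.05 at 24 h (SD, n = 2), 13.23 ± 0.15 on polysomes with insulin (n = 3), 13.22 ± 0.14 on polysomes with no insulin (n = 3) and 13.19 ± 0.26 in quiescent axes (n = 2). The first pair of neighbours overlapped, and so did the last 3 groups. The 5′ x probe set had the order 13.02, 12.72 ± 0.07, 11.73 ± 0.11 in quiescent axes, 11.47 ± 0.72 in polysomal RNA with insulin and 11.45 ± 0.85 in polysomal RNA without insulin, where the quiescent values lay within both polysomal ranges. The polysomal groups were the widest at this end of the transcript. Between technical arrays of one sample, all of them of total RNA, the 4 probe sets differed by 0.01 to 0.17; no polysomal sample had a repeat array.

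Signal for EF1a was at the top of the array before germination began. Among the 17582 probe sets tested (all but 152 control rows, with the maize controls kept), the 3′ probe set ranked 66 to 156 from the top in polysomal RNA with insulin and 81 to 165 in polysomal RNA without insulin. It ranked 34 in total RNA with insulin, 23 and 41 at 24 h, and 163 and 80 in the 2 quiescent samples. Its median position was above 99.5% of tested probe sets, against 99.3% for the middle probe set, 96.9% for the 5′ a probe set and 95.04% for the 5′ x probe set. The 5′ x probe set reached its lowest rank, 2316, in polysomal no-insulin sample 2, and ranked 989 and 872 in quiescent axes. These are ranks of array signal, which also depends on how well each probe binds, and are not an order of mRNA abundance.

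The first comparison asked whether EF1a signal in total RNA differed between germinated and stored mRNA. Each EF1a probe set was higher in both 24 h samples than in both quiescent samples, but 0 of 4 passed the test (limma, adjusted p under 0.05 over all 17582 probe sets). Over all tested probe sets 47.1% were called in this comparison, and 29.2% had both 24 h samples above both quiescent ones, so the separation of the 4 is not unusual. Of the calls over all probe sets 4538 of 8275 were lower at 24 h, and 7351 of 10413 with arrays centred on their medians. The 24 h minus quiescent difference was 0.36 for the 3′ probe set (SE 0.18, 95% interval -0.05 to 0.78, adjusted p = 0.134). It was 0.36 for the middle probe set (SE 0.30, interval -0.31 to 1.03, adjusted p = 0.343). With arrays centred on their medians these differences were 0.10 and 0.09, and without quiescent sample 1 or 2 the 3′ value was 0.18 or 0.55. At the 5′ side it was 0.97 for the a probe set (SE 0.55, interval -0.27 to 2.22, adjusted p = 0.175) and 0.99 for the x probe set (SE 0.54, interval -0.22 to 2.20, adjusted p = 0.159). A fit on the 24 h and quiescent samples alone, which leaves out the wide polysomal spread, called both 5′ probe sets, with adjusted p = 0.0232 for the a and 0.0222 for the x probe set, where that fit called 32.8% of all probe sets. The median difference of the 4 was 0.67 beside -0.17 over all tested probe sets. In extracts of whole axes, fewer cells that hold an mRNA and less of it per cell cannot be told apart.

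The second comparison asked how EF1a mRNA in polysomes compared with EF1a mRNA in total RNA of germinated axes. The arrays received equal RNA inputs and were scaled to each other, so they give representation relative to other mRNAs and not the share of EF1a molecules that sit on ribosomes. Polysomal RNA was prepared from 2 g of axes and total RNA from 1 g. All 6 polysomal samples were below all 3 total RNA samples for each of the 4 probe sets, and 0 of 4 passed the test. Of all tested probe sets 4.15% were called, 2.50% as lower on polysomes, and 9.91% had all 6 polysomal samples below all 3 total RNA samples. The 4 probe sets cover one transcript family and are not independent of each other in this count.

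Averaged over insulin states, the polysomal minus total difference was -0.34 at the 3′ probe set (SE 0.14, 95% interval -0.64 to -0.03, adjusted p = 0.177). It was -0.47 at the middle probe set (SE 0.22, interval -0.96 to 0.02, adjusted p = 0.232). The 5′ side stood further from total RNA, by -1.41 at the a probe set (SE 0.41, interval -2.32 to -0.49, adjusted p = 0.0829) and -1.41 at the x probe set (SE 0.39, interval -2.30 to -0.52, adjusted p = 0.0772), which is 2.65-fold lower on the linear scale. With all arrays in the fit and arrays of one sample treated as a random block, both 5′ probe sets were called. The limma adjusted p was 0.0224 for the a and 0.0194 for the x probe set, where that fit called 7.30% of all probe sets. It used 1 correlation of 0.69 between arrays of a sample for all probe sets. At the 5′ probe sets repeat arrays, all of total RNA, differed by 0.01 to 0.17, while polysomal samples had SDs of 0.72 to 0.87. Repeat arrays may thus have counted as partly independent samples, and these p-values may be too small. Polysomal no-insulin sample 2 and polysomal insulin sample 1 were also left out, chosen as the lowest in 5′ EF1a signal. The differences were then -0.99 at the 5′ a, -1.01 at the 5′ x and -0.24 at the middle probe set. In that fit 0 of 4 passed, where 0.472% of all probe sets were called. A smaller 5′ difference was bound to follow from that choice.

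Split by insulin, the 5′ x difference was -1.55 with insulin (SE 0.62, adjusted p = 0.499), where 0.00569% of all probe sets were called and total RNA had 1 sample. It was -1.27 without insulin (SE 0.49, adjusted p = 0.195), where 1.08% were called, and -0.82 when polysomal no-insulin sample 2 was left out. At the 3′ side the differences were -0.34 with insulin and -0.33 without. None of the 4 probe sets passed in either state.

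Set against the mean of the 24 h samples, single samples fanned out toward the 5′ side. At the 3′ probe set all 11 samples lay between -0.55 and 0.03 of that mean. At the middle probe set the lowest were polysomal no-insulin sample 2 at -0.94 and polysomal insulin sample 1 at -0.79. At the 5′ x probe set the same samples were at -2.16 and -1.95, while sample 3 of each polysomal group stayed at -0.52 with insulin and -0.47 without.

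The gap between the 3′ and the 5′ signal was therefore examined in each sample. The 3′ minus 5′ x difference was 2.43, 1.64 and 1.19 in polysomal RNA with insulin, 1.52, 2.73 and 1.08 in polysomal RNA without insulin, 0.55 in total RNA with insulin, 0.82 and 0.85 at 24 h, and 1.35 and 1.56 in quiescent axes. The 6 polysomal samples and the 2 quiescent samples were all above the 3 germinated total RNA samples. Averaged within insulin states, polysomal exceeded total RNA by 1.07 (exact permutation test within insulin states, two-sided, 40 arrangements, p = 0.05, which is not under the threshold of 0.05; the smallest p this design allows is 0.025). The difference without polysomal no-insulin sample 2 and polysomal insulin sample 1 was 0.67 (exact p = 0.0556 of 18 arrangements, the smallest they can give, so this test could not pass 0.05). Those 2 samples were left out for their low 5′ signal, so a smaller difference was bound to follow. Exchanging labels over all 9 germinated samples, with the 5′ x probe set, gave 1.02 with an exact p = 0.0476. With the 5′ a probe set and labels exchanged within insulin states, the difference was 1.07 (exact p = 0.075 of 40 arrangements). Each of these exact tests treated the polysomal samples as independent, although no-insulin and insulin samples resembled each other in pairs.

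The 2 quiescent samples exceeded the 24 h samples in the same measure, at 0.83 ± 0.02 at 24 h and 1.46 ± 0.15 in quiescent axes (SD, n = 2 each), a 24 h minus quiescent difference of -0.63. With 2 samples against 2 the smallest exact p is 0.333, so this could not be tested at 0.05. The extra gap lay between the 5′ and the middle probe sets. The middle minus 5′ x signal was 0.64 and 0.69 at 24 h against 1.31 and 1.27 in quiescent axes, and the 3′ minus middle signal averaged 0.17 in both groups.

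On polysomes the middle minus 5′ x signal ran from 0.95 to 1.89, against 0.51 to 0.69 in germinated total RNA (difference 0.94, exact permutation p = 0.025). The 3′ minus middle signal ran from -0.12 to 0.84 on polysomes and from 0.04 to 0.18 in total RNA (difference 0.14, exact p = 0.675). Its largest values, 0.84 and 0.59, were those of polysomal no-insulin sample 2 and polysomal insulin sample 1. The 2 probe sets of the 5′ side kept a nearly fixed distance of 0.35 to 0.44 from each other in all 11 samples. These p-values were not adjusted over the several probe set pairs, which share their members. The exact tests of polysomal against total RNA, here and for other control genes, also treated the polysomal samples as independent. Over all tested probe sets, no-insulin samples 1, 2 and 3 deviated together with insulin samples 2, 1 and 3 (r = 0.77, 0.70 and 0.60). If such samples are not independent, these exact p-values are too small.

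The same measure was taken from 4 other control genes with a 3′ and a 5′ probe set above background everywhere. The polysomal minus total difference in 3′ minus 5′ signal was 0.43 for ubiquitin, the tag of proteins for degradation (exact p = 0.175), 0.39 for GAPDH, a glycolytic enzyme (exact p = 0.2), 0.28 for cyclophilin, a protein folding enzyme (exact p = 0.075), and 0.20 for actin, the microfilament protein (exact p = 0.575). EF1a had the largest difference of the 5 genes, and after Benjamini-Hochberg adjustment over the 5 its p was 0.188, as was that of cyclophilin. Actin depended on which 5′ probe set was taken, with 0.78 (exact p = 0.025) and 0.54 (exact p = 0.075) from its other 5′ probe sets. Another GAPDH series and another actin series on the array were left out because they were not above background everywhere. That GAPDH series went the other way, at -0.35 (exact p = 0.025), and that actin series was at 0.22 (exact p = 0.075). With the probe sets named first for each gene, the widest gap within the polysomal groups was in insulin sample 1 and in no-insulin sample 2 in all 5 genes; with another actin 5′ probe set, insulin samples 1 and 2 stood at 7.44 and 7.46, with sample 2 the wider. Between 24 h and quiescent total RNA, the measure differed by -0.63 for EF1a, -0.01 for ubiquitin, -0.15 for GAPDH and -0.155 for cyclophilin. For actin it differed by 0.80, with 3.77 and 3.78 from its other 5′ probe sets. The wider gap in quiescent axes was therefore not shared by all control genes. Whether the state of the RNA or its copying had a part in the 5′ values was not tested.

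Insulin made no detectable difference to EF1a. In polysomal RNA the insulin minus no-insulin difference was 0.004 at the 3′ probe set (SE 0.15, 95% interval -0.33 to 0.34), 0.11 in the middle (SE 0.24, interval -0.44 to 0.66), and 0.03 at both 5′ probe sets (interval of the x probe set -0.96 to 1.01). In total RNA, where 1 insulin sample was set against 2 samples at 24 h, it was 0.02 at the 3′ (interval -0.49 to 0.53), 0.15 in the middle, 0.24 at the 5′ a and 0.30 at the 5′ x probe set (interval -1.18 to 1.78). The limma test called 0 of 17582 probe sets (0.00%) in either comparison. An unadjusted p under 0.05 was reached by 57 (0.324%) in polysomal and 427 (2.43%) in total RNA, none of them one of the 4. The insulin effect on polysomes minus that in total RNA ran from -0.27 at the 5′ x to -0.01 at the 3′ probe set. For it 0 of 4 and 0.00% of all probe sets were called, with 303 of 17582 (1.72%) at an unadjusted p under 0.05. Each share is below what that threshold gives with no effect, so these tests may be too conservative to detect a change. Without sample M4, which leaves 1 sample on each side in total RNA, 416 probe sets were called in total RNA and 86 for the difference between the insulin effects, with 0 of the 4 among either. The 5′ intervals come from a fit that treats the 6 polysomal samples as unpaired and hold a change of about 1 log2 unit in either direction. Over all tested probe sets, however, no-insulin sample 1 deviated from its group mean together with insulin sample 2 (r = 0.77), sample 2 with insulin sample 1 (r = 0.70) and sample 3 with insulin sample 3 (r = 0.60), a likeness that the labels do not describe and that was not used to pair them.

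Polysomal RNA of germinated axes without insulin was also set against the quiescent store, a comparison that crosses both time and RNA fraction. The difference was 0.03 at the 3′ probe set (SE 0.17, interval -0.34 to 0.41), -0.09 in the middle (SE 0.27), -0.33 at the 5′ a (SE 0.50) and -0.28 at the 5′ x probe set (SE 0.49, interval -1.39 to 0.82). None of the 4 passed (adjusted p from 0.596 to 0.873) where 57.7% of all probe sets did. With arrays centred on their medians the 3′ difference was -0.19. Of the calls over all probe sets 5734 of 10149 were lower on polysomes, and 7868 of 11671 with that centring.

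The 14 other probe sets that the annotation assigns to EF1a genes belong to 4 genes, EF1A (3 probe sets), elfa2 (5), elfa3 (5) and elfa5 (1), and are numbered here within each gene in the order of their identifiers. At 24 h 4 of 14 were higher, where 21.3% of all tested probe sets were, 2 were lower, where 25.8% were, and 8 did not pass, with a median of 0.22 beside -0.17 over all tested probe sets. Without sample M4, which left 1 sample at 24 h, fewer of the 14 passed. EF1A probe set 3 of 3 read 13.33 and 12.60 at 24 h against 11.37 and 11.69 in quiescent axes, a rise of 1.43 (SE 0.28, adjusted p = 0.00253). The single elfa5 probe set read 12.03 and 12.07 at 24 h against 11.03 and 11.33, a rise of 0.87 (SE 0.18, adjusted p = 0.00378). In both, the 24 h samples were clear of the quiescent ones.

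The elfa3 probe sets 4 and 5 of 5, both of the x type, rose by 0.57 (adjusted p = 0.0339) and 0.66 (adjusted p = 0.0261). Both elfa3 calls were lost when arrays were centred on their medians (0.30 and 0.40), and when either 24 h sample or quiescent sample 1 was left out. The elfa2 probe set 2 of 5 read 8.0 and 7.80 at 24 h against 9.54 and 9.14 in quiescent axes, a fall of 1.44 (SE 0.18, adjusted p = 1.75e-04). Its companion of the x type, elfa2 probe set 3 of 5, differed by -0.12 and did not pass. The elfa2 probe set 5 of 5 fell by 0.97 (adjusted p = 0.0123), which was lost without sample M4 (-0.79, adjusted p = 0.0673) or without quiescent sample 2 (-0.74, adjusted p = 0.0897). The elfa2 probe set 1 of 5 averaged 13.52 at 24 h against 13.13 in quiescent axes and did not pass. Probe sets of one EF1a gene therefore differed in size and call, though no gene had calls in both directions. The x types among them may read more than one gene.

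On polysomes 0 of these 14 probe sets passed, with differences from total RNA between -0.31 and 0.75 and a median of -0.04, beside -0.05 over all tested probe sets. The highest was elfa2 probe set 5 of 5 at 0.75 (SE 0.19, adjusted p = 0.0594), which passed under quantile normalization, median centring and second arrays (adjusted p = 0.0459, 0.0479 and 0.0327), and the lowest was elfa2 probe set 1 of 5 at -0.31 (SE 0.16, adjusted p = 0.266). Averaged over insulin states, none of the 14 was near the -1.41 of the 5′ control probe sets. The lowest was near the -0.34 of the 3′ control. Where the 14 lie along their transcripts was not tested, so they cannot be matched to either end. In single samples 1, 2 and 3, elfa3 probe set 3 of 5 differed from mean total RNA by -1.22, 0.19 and -0.14 without insulin. With insulin its differences were 0.42, -0.998 and 0.03. Polysomal RNA without insulin against quiescent axes had 4 of 14 higher, where 25.1% of all tested probe sets were, and 2 lower, where 32.6% were, led by EF1A probe set 3 of 3 at 1.48 and elfa2 probe set 2 of 5 at -1.60. Comparisons that share the quiescent samples are given side by side and were not correlated.

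Over the 11 samples the elfa2 probe set 1 of 5 followed the 3′ control most closely of the 14 (Pearson r = 0.98), and its levels ran from 12.91 to 13.57. Among the 4 controls r was 1.00 between the 5′ pair, 0.93 between the middle and the 5′ x probe set, 0.71 between the 3′ and the 5′ x, and 0.52 between the 3′ and the middle. Outside the EF1a family, among 13070 probe sets above background in every sample, the 2 closest to the 3′ control (r = 0.88 each) have no gene name here. The 2 closest to the 5′ x control (r = 0.95 each) were one assigned to LOC541944 and one with no gene name. These correlations share the samples and the array scaling and describe these 11 samples.

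Of the other translation factors, eIF4A, the RNA helicase that unwinds mRNA leaders for the small ribosomal subunit, had 3 probe sets of 2 genes. No probe set is listed here for eEF1B, eEF2 or the poly(A)-binding protein. As 16129 tested probe sets have no gene name, this does not show that the array lacks them. Of the 3 eIF4A probe sets 0 passed at 24 h against quiescent axes (-0.34 to -0.10), where 47.1% of all probe sets were called. On polysomes against total RNA 0 passed (-0.38 to -0.22), where 4.15% were called. At 24 h 2 passed with median centring, where 59.2% of all probe sets were called, or with the trend and robust prior, where 48.0% were. On polysomes 1 passed with that prior, where 3.92% were called, or with second arrays, where 4.23% were. All 3 were lower in polysomal RNA without insulin than in quiescent axes, with differences of -0.71 to -0.58, where 32.6% of all probe sets were called lower. The 17 probe sets for cytosolic ribosomal proteins were a list drawn up after values were seen. Of these, 2 rose at 24 h, 1 fell and 14 did not pass, where 47.1% of all probe sets were called. With median centring 5 passed, where 59.2% of all probe sets were called. Fewer passed when either 24 h sample was left out, which left 1 sample at 24 h. On polysomes against total RNA 16 of the 17 did not pass and 1 was lower, where 2.50% of all probe sets were called lower. The median of the 17 was 0.14, and 10 of them were positive. The lower one was the probe set of RPL19, at -0.81 (limma adjusted p = 0.0489). That call was lost in 12 of 18 alternative settings, among them leaving out any one polysomal sample or sample RB.

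The samples' identity was checked through marker transcripts. The late embryo gene rab17 read 9.23 to 11.09 in polysomal RNA, 10.90 in total RNA with insulin, 10.42 and 12.50 at 24 h and 14.09 in both quiescent samples. Of 6 probe sets for dry seed and embryo genes, 5 were highest in the quiescent samples, and 1 of the 4 for vp1 went the other way, at 6.17 to 8.72 in polysomal RNA against 5.32 and 5.74 in quiescent axes. The 6 endosperm probe sets, mostly of zein storage proteins, stayed at or below 4.47 in all samples. Of 2 leaf probe sets, that of rbcS was above background in all samples, at 4.76 to 6.23. That of Cab-m7 was above it in none, at 3.92 to 4.40. The poly(A) control RNAs added before labelling had medians of 7.17 to 7.56 in germinated total RNA and 9.47 to 9.71 in quiescent axes. In polysomal samples 1, 2 and 3 their medians were 9.57, 10.79 and 7.37 with insulin and 10.84, 9.54 and 8.45 without. By these medians no-insulin sample 1 was nearest insulin sample 2, and no-insulin sample 2 nearest insulin sample 1. Their part in the EF1a differences was not tested.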

How the data were processed

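The deposited table, in log2 intensity per probe set, was made by the authors; the submitters' processing notes name limma, and the sources used here do not state how background was corrected or probes were summarised and scaled. From the values the log2 scale runs from 2.60 to 14.38. Technical arrays of a sample were averaged, giving 11 samples from 14 arrays, and one limma fit (version 3.58.1, R 4.3.3; lmFit, eBayes) over all 5 groups had 6 residual degrees of freedom. P-values were adjusted by Benjamini-Hochberg over 17582 probe sets. The number of arrays limits the precision, and the spread behind each p is that between these samples, which may be partly technical. Gene names come from GEO's platform annotation (1452 probe sets with 1 gene, 1 with several, 16129 tested without a name); 1377 matched current maize RefSeq genes. Genes named are the 4 members, the probe sets of eEF1A and eIF4A, and other controls for their 3′ minus 5′ signal. Also named are the 2 probe sets most like the 3′ and the 5′ x member. The ribosomal protein list came later. The members and lists were chosen with earlier results of these data known. Fits were tested on simulated data.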

Additional observations from a re-analysis of the deposited data

How the results depend on the processing

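Alternatives were quantile normalization, median centring, a filter on the dimmest 25%, technical arrays used singly or as a block, and a trend and robust prior. Others were fits on the compared groups alone, leaving out each sample, and a replicate block. Using second arrays was chosen after seeing the data. So was leaving out polysomal no-insulin sample 2 with polysomal insulin sample 1, chosen as the lowest in 5′ EF1a signal. The count of EF1a probe sets called stayed at 0 of 4 in all comparisons except 2. It became 2 for 24 h minus quiescent in the fit on those groups alone. It became 2 for polysomal minus total with all arrays and the sample as a random block. That block fit used 1 correlation of 0.69 for all probe sets, so its p-values may be too small for the 5′ probe sets. The 3′ minus 5′ x difference between polysomal and total RNA became 1.02 with labels exchanged over all 9 samples, exact p = 0.0476. It ranged from 0.83 to 1.25 with 1 sample left out. With the 5′ a probe set the difference was 1.07, with an exact permutation p = 0.075 within insulin states. These exact tests treated the polysomal samples as independent. Replicate numbers did not pair the polysomal samples: same-numbered pairs had deviation correlations of -0.63, -0.44 and 0.60, and samples 1 and 2 were each most like the other number. The replicate block over the polysomal groups left 0 of 4 called (5′ x limma adjusted p = 0.0811 for polysomal minus total). With it 0.262% of all probe sets were called for polysomal minus total. For polysomal RNA without insulin minus quiescent, 3 EF1a gene probe sets, in place of 6, were called with that block. In that comparison 52.7% of all probe sets were called, in place of 57.7%.

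The sign changed in 38 of 924 recomputed values, none of them called. For polysomal without insulin minus quiescent, median centring gave -0.19 at the 3′ probe set, and leaving out those 2 polysomal samples gave 0.13 (5′ a), 0.16 (5′ x) and 0.15 (middle). Leaving out 1 sample gave -0.15 to 0.22 (3′), -0.73 to 0.13 (5′ a), -0.68 to 0.16 (5′ x) and -0.23 to 0.15 (middle). For insulin in polysomal RNA, median centring gave -0.0061 (3′), and leaving out the 2 samples gave -0.065 (5′ a) and -0.067 (5′ x); leaving out 1 sample gave -0.080 to 0.070 (3′), -0.43 to 0.43 (5′ a), -0.42 to 0.42 (5′ x) and -0.13 to 0.33 (middle). For insulin in total RNA, the 3′ value was -0.024 after quantile normalization, -0.0028 after median centring and -0.016 to 0.053 with 1 sample left out. For the difference between the insulin effects, quantile normalization gave 0.033 (3′) and 0.013 (middle), leaving out the 2 samples gave 0.033 (3′), and leaving out 1 sample gave -0.098 to 0.052 (3′), -0.67 to 0.19 (5′ a), -0.72 to 0.12 (5′ x) and -0.28 to 0.19 (middle). The cause of these changes was not tested. Median centring moved the median of all probe sets at 24 h against quiescent to -0.44, against -0.17 as deposited. Where a sample was left out of a group of 2, the lone sample was assumed to vary like the other groups. The count of all probe sets called for polysomal minus total, 729, ran from 46 with the replicate block to 2065 without sample M4.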
